A study of Mus musculus with 8 samples.

Results

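Transcripts of receptors of the tumour necrosis factor receptor (TNFR) superfamily were followed in regulatory T cells (Treg) and effector T cells (Teff) of mouse spleen. The genes were chosen by symbol from a list of 9 receptors found on T cells: Tnfrsf4, Tnfrsf9, Tnfrsf18, Tnfrsf1a, Tnfrsf1b, Tnfrsf14, Tnfrsf25, Cd27 and Fas. Of these, 8 had a row among the 18438 genes of the table, and all 8 passed the filter on low values that left 13358 genes for testing. Fas was not analysed here. C57BL/6 mice had experimental autoimmune encephalomyelitis (EAE), a model of multiple sclerosis induced with the myelin protein MOG, and spleen cells were sorted at day 7. The 4 groups were Treg (CD4+ CD25hi YFP+) of mice labelled IRE1a-/- (KO), Treg of wild-type (WT) mice, Teff (CD4+ CD25- YFP-) of KO mice and Teff of WT mice. Each held 2 libraries, and all mice had EAE. IRE1a, encoded by Ern1, senses misfolded protein in the endoplasmic reticulum. The labels name neither the promoter that drives YFP nor the cells that carry the deletion, and no label says that the libraries within a group stem from different mice. P-values therefore rest on how far libraries of a group differ, and that may be technical variation alone.

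Receptors of this superfamily bind trimeric ligands of the TNF family through cysteine-rich repeats outside the cell. Most of those on T cells, such as OX40 (Tnfrsf4), 4-1BB (Tnfrsf9), GITR (Tnfrsf18), TNFR2 (Tnfrsf1b), CD27 and HVEM (Tnfrsf14), recruit TRAF adaptors, which lead to NF-kB activation and prolong the survival and division of T cells. TNFR1 (Tnfrsf1a), DR3 (Tnfrsf25) and Fas carry a death domain and can also signal through TRADD or FADD. OX40, 4-1BB and GITR are induced by antigen receptor signals in conventional T cells and are carried by Treg at rest, whereas CD27 and HVEM are already present on naive T cells.

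Of the 8 genes, 6 lie on chromosome 4 and 2 on chromosome 6 (GENCODE M21 annotation of GRCm38, the assembly also called mm10). Tnfrsf4 (chr4:156013843-156016612) and Tnfrsf18 (chr4:156026164-156028895) are neighbours on the forward strand, 9551 bases apart. Tnfrsf9 spans chr4:150914562-150946102 and Tnfrsf1b chr4:145213463-145246870, on the reverse strand. Exons of Tnfrsf18 share 414 bases with the antisense gene Gm16008. The labels do not say whether the libraries kept the strand, so the value of Tnfrsf18 could hold antisense reads from that stretch.

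Promoter sequence is shown for Tnfrsf9, Tnfrsf4 and Tnfrsf18, the activation-induced costimulatory receptors, whose transcripts were all lower in KO Teff, so that their start regions can be compared. Each window runs 5′ to 3′ on the gene's strand from 250 bases before to 50 bases after the start site (RefSeq, GRCm38.p6). Capitals mark matches, on either strand, to GGGNNTTCC (an NF-kB type motif), TGANTCA (AP-1) or TGTGGT (Runx type). For Tnfrsf9 the second of its start sites is shown, the one whose window held matches.
Tnfrsf9, chr4:150927749-150928048, forward strand: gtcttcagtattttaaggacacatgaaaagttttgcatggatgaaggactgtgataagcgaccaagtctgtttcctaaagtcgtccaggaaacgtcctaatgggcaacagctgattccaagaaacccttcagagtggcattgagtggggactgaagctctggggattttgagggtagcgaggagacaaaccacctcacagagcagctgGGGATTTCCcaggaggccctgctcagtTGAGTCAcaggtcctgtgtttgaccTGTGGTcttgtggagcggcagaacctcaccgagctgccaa
Tnfrsf4, chr4:156013445-156013744, forward strand: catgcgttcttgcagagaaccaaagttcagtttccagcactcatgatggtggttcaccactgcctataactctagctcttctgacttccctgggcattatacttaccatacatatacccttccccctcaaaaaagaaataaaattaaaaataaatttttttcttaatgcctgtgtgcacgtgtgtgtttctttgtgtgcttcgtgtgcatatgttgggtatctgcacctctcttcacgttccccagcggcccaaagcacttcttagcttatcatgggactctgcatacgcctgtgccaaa
Tnfrsf18, chr4:156026072-156026371, forward strand: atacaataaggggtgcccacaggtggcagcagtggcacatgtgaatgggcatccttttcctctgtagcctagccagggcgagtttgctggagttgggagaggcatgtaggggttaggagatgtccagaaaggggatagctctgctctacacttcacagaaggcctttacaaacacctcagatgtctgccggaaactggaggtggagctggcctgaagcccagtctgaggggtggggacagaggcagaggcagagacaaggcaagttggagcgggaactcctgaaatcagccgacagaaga

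The Tnfrsf9 window held 1 match to each motif. They were GGGATTTCC from position -42, TGAGTCA from position -15 and TGTGGT from position 11 relative to the start site, and none overlapped another. The windows of Tnfrsf4 and Tnfrsf18 held none of these motifs, nor did the window at the other start site of Tnfrsf9. The window of Tnfrsf1b, also lower in KO Teff but not shown, held none either. Of 32851 windows of 300 bases in the RefSeq table, 5.82% held the NF-kB type motif, 7.81% the AP-1 motif and 16.8% the Runx type motif. Among the 10 windows of the 8 receptor genes, 1 held the NF-kB type motif, 1 the AP-1 motif and 2 the Runx type motif, the other Runx type match being in a window of Tnfrsf25.

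Values are normalized read numbers as deposited, which summed to between 17504097 and 18751258 per library. Ern1 had 326 and 359 in KO Treg and 377 and 399 in WT Treg, and 458 and 453 in KO Teff and 559 and 616 in WT Teff. Whole-gene values do not show which part was deleted and do not check the genotype labels. Il2ra, which encodes the CD25 used in the sort, averaged 8793 in KO Treg and 8978 in WT Treg, and 486 in KO Teff and 639 in WT Teff. Foxp3, the Treg lineage factor, lay between 89.1 and 117 in the 4 Treg libraries, at 2.06 and 8.29 in KO Teff, and at a listed 0 in each library of WT Teff. All 7 T cell markers in the table were above 0 in every group. Markers of macrophages and monocytes summed to 7765 to 8238 in KO Treg and 13434 to 13757 in WT Treg libraries, and to 249 to 343 in KO Teff and 406 to 1170.1 in WT Teff libraries. None of these 6 markers was at 0 in any group.

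The first question was how the receptors were distributed between the cell types. Tnfrsf9, Tnfrsf4, Tnfrsf1b, Tnfrsf18 and Cd27 were higher in Treg than in Teff in both genotypes, whereas Tnfrsf1a and Tnfrsf14 were lower in KO Treg than in KO Teff. In KO mice 5 of the 8 were called higher and 2 lower, when 26.9% of all tested genes were called, 15.7% higher and 11.2% lower. In WT mice 5 were called higher and 0 lower, when 25.1% of all tested genes were called, 13.5% higher and 11.6% lower. A call is a limma p-value below 0.05 after Benjamini-Hochberg adjustment over all tested genes. The median log2 fold change over the 8 was 1.42 in KO and 1.36 in WT, against 0.00 in KO and -0.0016 in WT over all tested genes. In bulk RNA, fewer cells of a type and less RNA per cell cannot be told apart. The genotypes share no library here, but each of these libraries also enters the KO against WT comparisons.

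Tnfrsf9, which encodes 4-1BB, had 3847 and 3851 in the KO Treg libraries and 4608 and 4815 in the WT Treg libraries, against 159.9 and 173 in KO Teff and 358 and 360.1 in WT Teff. No library of a cell type overlapped the other, and Treg exceeded Teff by 4.53 on the log2 scale in KO and 3.71 in WT (limma, SE 0.07 each, adjusted p = 5.24e-07 and 2.21e-06). This was the widest gap of the 8 in both genotypes. Tnfrsf4, which encodes OX40, had 7576 and 7711 in KO Treg and 9033 and 9267 in WT Treg, against 801 and 678 in KO Teff and 1362 and 1333 in WT Teff. Its log2 fold change of Treg over Teff was 3.37 in KO and 2.76 in WT (limma, SE 0.08 each, adjusted p = 2.39e-06 and 5.75e-06). Tnfrsf18, which encodes GITR, was also several times more abundant in every Treg library than in any Teff library. It had 3988 and 4199 in KO Treg and 4930.4 and 5097 in WT Treg, against 924 and 886 in KO Teff and 1132 and 1267 in WT Teff. Its log2 fold change was 2.18 in KO and 2.06 in WT (limma, SE 0.07 each, adjusted p = 6.27e-06 and 8.64e-06).

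The pair of TNF receptors ran in opposite directions. Tnfrsf1b, whose product TNFR2 is found on activated T cells and Treg, had 9689.5 and 9966 in KO Treg and 10112 and 11222 in WT Treg, against 1814 and 1445 in KO Teff and 2263 and 2454 in WT Teff (log2 fold change of Treg over Teff 2.60 in KO and 2.18 in WT, limma, SE 0.11 each, adjusted p = 1.11e-05 and 2.83e-05). Tnfrsf1a, which encodes the widely expressed TNFR1, had 556 and 565 in KO Treg and 513 and 592 in WT Treg, against 852 and 794 in KO Teff and 656 and 791 in WT Teff. Its libraries did not overlap between cell types, with Treg lower by log2 fold changes of -0.55 in KO and -0.39 in WT. The test called the difference in KO (limma adjusted p = 0.0134) and not in WT (adjusted p = 0.0547), and the test of the difference between genotypes is given with the difference of effects. The KO call was lost without KO Treg replicate 1 or 2 or KO Teff replicate 1 (adjusted p = 0.0676, 0.0589 and 0.0696), and the WT difference ranged from -0.52 without WT Teff replicate 1, where it was called (adjusted p = 0.0359), to -0.25 without WT Teff replicate 2 (adjusted p = 0.237).

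Cd27, the receptor for CD70 on naive and memory T cells, was moderately higher in Treg. It had 5455 and 5439 in KO Treg and 4874 and 5173 in WT Treg, against 3259 and 3649.7 in KO Teff and 3238 and 3171 in WT Teff, a log2 fold change of 0.66 in KO and 0.65 in WT (limma, SE 0.07 each, adjusted p = 0.000383 and 0.000536). Tnfrsf14, whose product HVEM binds LIGHT and BTLA, had 401 and 431 in KO Treg and 446 and 449 in WT Treg, against 653 and 534 in KO Teff and 551 and 554 in WT Teff. Treg were lower in both genotypes, by log2 fold changes of -0.50 in KO and -0.30 in WT, of which the first was called (limma adjusted p = 0.0169 and 0.103). That call was lost without KO Treg replicate 1 or 2 or KO Teff replicate 1 (adjusted p = 0.0932, 0.0524 and 0.0727). Tnfrsf25, the death-domain receptor DR3, was the most even of the 8. It had 1353 and 1417 in KO Treg and 1600.0 and 1438 in WT Treg, against 1623 and 1508 in KO Teff and 1618 and 1589.8 in WT Teff, and WT libraries overlapped between cell types. Its log2 fold change was -0.18 in KO (95% interval -0.36 to 0.01) and -0.08 in WT (-0.26 to 0.10), with limma adjusted p = 0.145 and 0.513.

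**Figure D1:**
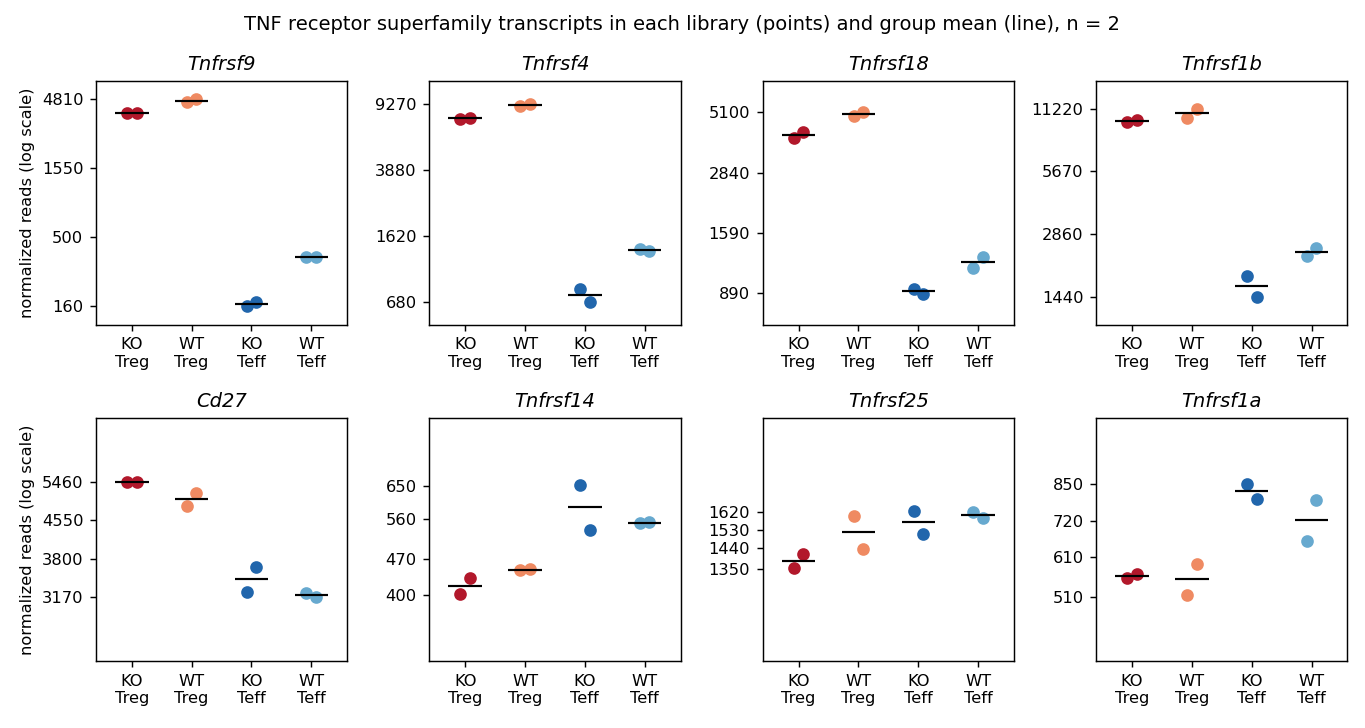
Normalized read number of each receptor transcript (y axis, log scale, with its own range in each panel) in each library of the 4 groups (x axis), with points for libraries and a line for the mean of 2. Tnfrsf9, Tnfrsf4, Tnfrsf18 and Tnfrsf1b stand far higher in Treg than in Teff and are lower in both KO Teff libraries than in both WT Teff libraries, whereas Tnfrsf25 is nearly level.

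The markers of macrophages and monocytes were also higher in Treg, with 5 of 6 called higher in KO and 6 of 6 in WT. Their part in the Treg levels of Tnfrsf1b and the other receptors was not tested.

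Levels were compared between receptors per kilobase of exon. In Treg of both genotypes Tnfrsf4 was the most abundant, with 5600 ± 69.9 normalized reads per kilobase in KO Treg and 6704 ± 121 in WT Treg (SD, n = 2 each). Tnfrsf18, Tnfrsf1b, Cd27, Tnfrsf9, Tnfrsf25, Tnfrsf14 and Tnfrsf1a followed in that order in both, and no neighbours in the order overlapped between libraries. In Teff the order changed. Cd27 led with 1484 ± 119 per kilobase in KO Teff and 1376 ± 20.4 in WT Teff, and Tnfrsf9 came last with 61.1 ± 3.33 in KO Teff and 132 ± 0.502 in WT Teff. Tnfrsf4 ranked second in WT Teff at 987 ± 14.6 per kilobase but ranked 4 in KO Teff at 542 ± 63.5. In KO Teff the libraries of Tnfrsf18 and Tnfrsf4 overlapped, as did those of Tnfrsf1b and Tnfrsf14, so the order within these pairs does not exceed their spread.

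**Figure D2:**
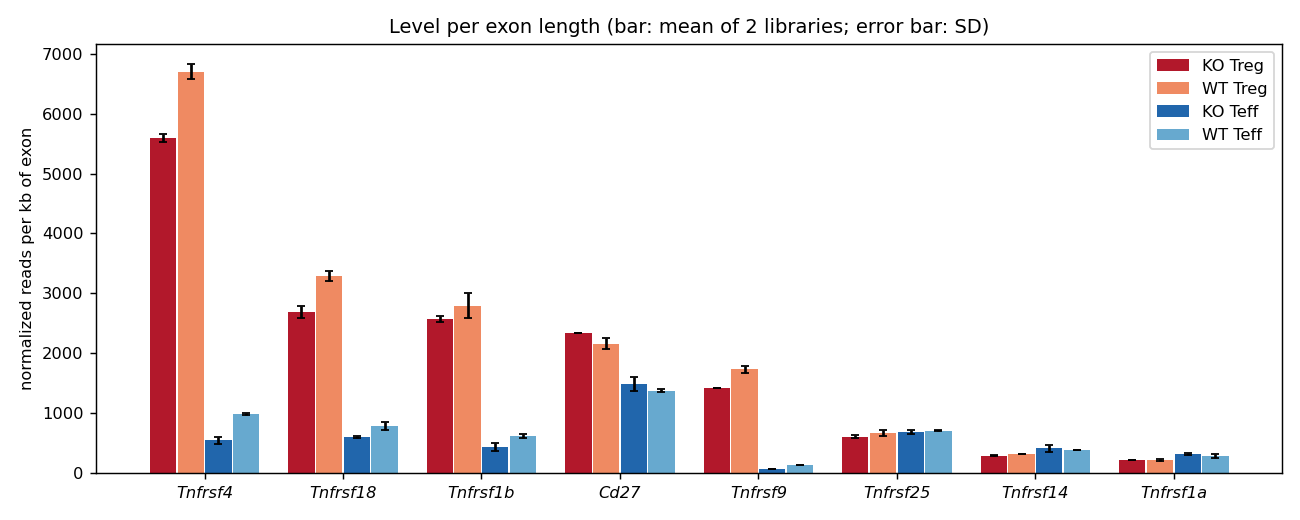
Normalized reads per kilobase of merged exon (y axis, from 0) for each receptor (x axis) in the 4 groups; bars are means of 2 libraries and error bars the SD. Tnfrsf4 is the tallest in Treg and Cd27 the tallest in Teff.

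The second comparison asked how the receptors differed between KO and WT Teff. Transcripts of Tnfrsf9, Tnfrsf4, Tnfrsf1b and Tnfrsf18, the 4 receptors with the widest Treg over Teff gap, were lower in KO Teff, while those of Cd27, Tnfrsf14, Tnfrsf25 and Tnfrsf1a did not pass the test. Thus 4 of 8 were called lower and 0 higher, when 6.92% of all tested genes were called, 5.08% lower and 1.84% higher. The median log2 fold change over the 8 was -0.22, against -0.02 over all tested genes.

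Tnfrsf9 averaged 166 ± 9.06 in KO Teff and 359 ± 1.37 in WT Teff (SD, n = 2 each), a ratio of 0.463 (log2 fold change -1.11, SE 0.07, limma adjusted p = 0.000768). Tnfrsf4 averaged 739.8 ± 86.7 in KO Teff and 1347 ± 20.0 in WT Teff, a ratio of 0.549 (log2 fold change -0.87, SE 0.08, limma adjusted p = 0.00246). Both calls held in all 18 alternative settings, with adjusted p up to 0.0388 for Tnfrsf9 and 0.0377 for Tnfrsf4. Tnfrsf1b averaged 1629 ± 261 in KO Teff and 2359 ± 135 in WT Teff, a ratio of 0.691 (log2 fold change -0.54, SE 0.11, limma adjusted p = 0.0314). Tnfrsf18, the neighbour of Tnfrsf4, averaged 905 ± 27.0 in KO Teff and 1199 ± 95.6 in WT Teff, a ratio of 0.755 (log2 fold change -0.40, SE 0.07, limma adjusted p = 0.0224). For each of the 4 the highest KO Teff library stood below the lowest WT Teff library. Libraries of Cd27 and Tnfrsf1a, which were not called, did not overlap either, with KO Teff higher, so non-overlap alone does not set the 4 apart. Nor was the share of all tested genes without overlap counted. The authors' deposited table also lists the 4 genes as lower in KO Teff, with log2 fold changes of -1.11 for Tnfrsf9, -0.86 for Tnfrsf4, -0.54 for Tnfrsf1b and -0.41 for Tnfrsf18 and adjusted p-values between 2.11e-18 and 0.000656. Of the genes with an adjusted p-value for Teff in the authors' deposited table, a share of 8.82% lay below 0.05.

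The calls of Tnfrsf18 and Tnfrsf1b were lost without some single libraries, although leaving out Treg libraries did not change their log2 fold changes. That of Tnfrsf18 was lost without WT Treg replicate 1 or 2, KO Teff replicate 1 or 2 or WT Teff replicate 2 (limma adjusted p between 0.0510 and 0.101, log2 fold change -0.32 to -0.43). That of Tnfrsf1b was lost when any 1 library other than KO Teff replicate 1 was left out (limma adjusted p between 0.0554 and 0.146, log2 fold change -0.38 to -0.60), and with the replicate number as a block (limma adjusted p = 0.0561).

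The other 4 receptors had 95% intervals that spanned 0. Cd27 averaged 3455 ± 276 in KO Teff and 3204 ± 47.5 in WT Teff (log2 fold change 0.11, 95% interval -0.05 to 0.26, limma adjusted p = 0.421). Tnfrsf1a averaged 823 ± 41.1 in KO Teff and 724 ± 95.4 in WT Teff (log2 fold change 0.19, 95% interval -0.09 to 0.47, limma adjusted p = 0.420). For these genes a fall of the size seen for Tnfrsf18 lies outside the interval. Tnfrsf14 averaged 593 ± 84.4 in KO Teff and 552 ± 2.48 in WT Teff (log2 fold change 0.10, 95% interval -0.18 to 0.37), and Tnfrsf25 averaged 1565 ± 80.8 in KO Teff and 1604 ± 19.8 in WT Teff (log2 fold change -0.04, 95% interval -0.22 to 0.15).

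Marker lists moved in KO Teff as well. Over all tested genes 5.08% were called lower and 1.84% higher. Of 8 markers of activated T cells 7 were called lower, with summed levels of 20514 and 24151 in the KO Teff libraries and 30457 and 32138 in the WT Teff libraries. Irf4, a factor induced by antigen receptor signals, changed by a log2 fold change of -0.86 (limma adjusted p = 0.00438), and Nr4a1 (-0.45, adjusted p = 0.0516) was the member not called. Of 10 proliferation markers 6 were called lower and all 10 lay below 0 (median log2 fold change -1.15). Their sums were 5729.8 and 6296 in KO Teff libraries and 9511 and 9567 in WT Teff libraries. The resting T cell markers Ccr7, Il7r and Satb1 rose. Among 8 Treg markers 3 were called lower (Ikzf2, Ctla4 and Nrp1) and 2 higher (Gpr83 and Foxp3). Foxp3 had 2.06 and 8.29 in KO Teff and 0 in both WT Teff libraries. It passed the filter through its Treg values alone, and its Teff fold change depends on the pseudocount, so its call is not read as a rise. Sums of the Treg markers were 6770.0 and 7558 in KO Teff and 9291 and 10641 in WT Teff. B cell markers summed to 365 and 398 in KO Teff and 640.4 and 800.3 in WT Teff. Of these 6 markers 1 was called lower (Cd22), and 5 lay below 0. Cd22 had 279 and 153 in KO Teff and 524 and 685 in WT Teff, most of the WT sums. Pax5, the marker above 0, had 9.06 and 168 in KO Teff and 12.6 and 17.7 in WT Teff. In Treg 3 B cell markers lay above 0 and 3 below, with 0 called. Pax5 had 178 and 162 in KO Treg and 5.74 and 2.87 in WT Treg. Dendritic cell markers summed to 385 and 723 in KO Teff and 918 and 1591 in WT Teff. Of these 4 markers 1 was called lower (Zbtb46), and all 4 lay below 0 (median log2 fold change -1.16). The part of these markers in the lower receptor transcripts was not tested. Macrophage and monocyte markers had 0 of 6 called in KO Teff, with all 6 below 0, a median log2 fold change of -1.21 and the sums given above. No marker of NK cells, CD8 T cells, neutrophils or erythroid cells was called between genotypes in Teff or Treg.

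The third comparison asked the same of Treg. No receptor passed limma's test in KO against WT Treg, where 1.45% of all tested genes were called (0.674% higher and 0.779% lower), and 3 had an unadjusted p below 0.05, as did 14.7% of all tested genes. The 3 were Tnfrsf9, Tnfrsf18 and Tnfrsf4, which encode 4-1BB, GITR and OX40. Tnfrsf9 averaged 3849 ± 2.49 in KO Treg and 4712 ± 146 in WT Treg, a ratio of 0.817 (log2 fold change -0.29, 95% interval -0.46 to -0.12, limma adjusted p = 0.124). Tnfrsf18 averaged 4094 ± 149 in KO Treg and 5014 ± 118 in WT Treg, a ratio of 0.816 (log2 fold change -0.29, 95% interval -0.47 to -0.12, limma adjusted p = 0.124). Tnfrsf4 averaged 7644 ± 95.4 in KO Treg and 9150.3 ± 165 in WT Treg, a ratio of 0.835 (log2 fold change -0.26, 95% interval -0.45 to -0.07, limma adjusted p = 0.198). KO and WT libraries did not overlap for these 3 genes. Those of Tnfrsf1b, Tnfrsf14, Tnfrsf25 and Cd27 did not overlap in Treg either, with Cd27 higher in KO, so this does not set the 3 apart. The share of all tested genes without overlap was not counted, so non-overlap is not read as a result. The authors' deposited table lists the 3 as lower in KO Treg (adjusted p = 0.0212 for Tnfrsf9, 0.0284 for Tnfrsf18 and 0.0408 for Tnfrsf4), where a share of 3.28% of the genes with an adjusted p-value for Treg lay below 0.05.

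The remaining receptors lay closer to 0 in Treg. Tnfrsf1b averaged 9828 ± 196 in KO Treg and 10667 ± 785 in WT Treg (log2 fold change -0.12, 95% interval -0.38 to 0.14, limma adjusted p = 0.690). Cd27 was the receptor with the highest fold change, averaging 5447 ± 11.4 in KO Treg and 5024 ± 211 in WT Treg (log2 fold change 0.12, 95% interval -0.04 to 0.28, limma adjusted p = 0.489). Tnfrsf1a, Tnfrsf14 and Tnfrsf25 had log2 fold changes of 0.02, -0.11 and -0.13, with limma adjusted p of 0.505 or more. Macrophage and monocyte markers had 0 of 6 called in KO Treg, all 6 below 0, and a median log2 fold change of -0.77. Of the Treg markers 1 of 8 was called higher (Gpr83) and 0 lower, against 0.674% and 0.779% of all tested genes. Of 10 proliferation markers 2 were called lower (Mki67 and Rrm2), with all 10 below 0 and a median log2 fold change of -0.42. Of 8 activation markers 1 was called lower (Irf4), with 6 below 0 and a median of -0.31. The resting T cell markers Il7r, S1pr1 and Satb1 rose. Summed levels were 8333 and 8534 in KO Treg and 10642 and 10880.3 in WT Treg for proliferation, and 28626 and 29369 in KO Treg and 33772 and 33872 in WT Treg for activation. The part of these markers in the receptor values was not tested.

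**Figure D3:**
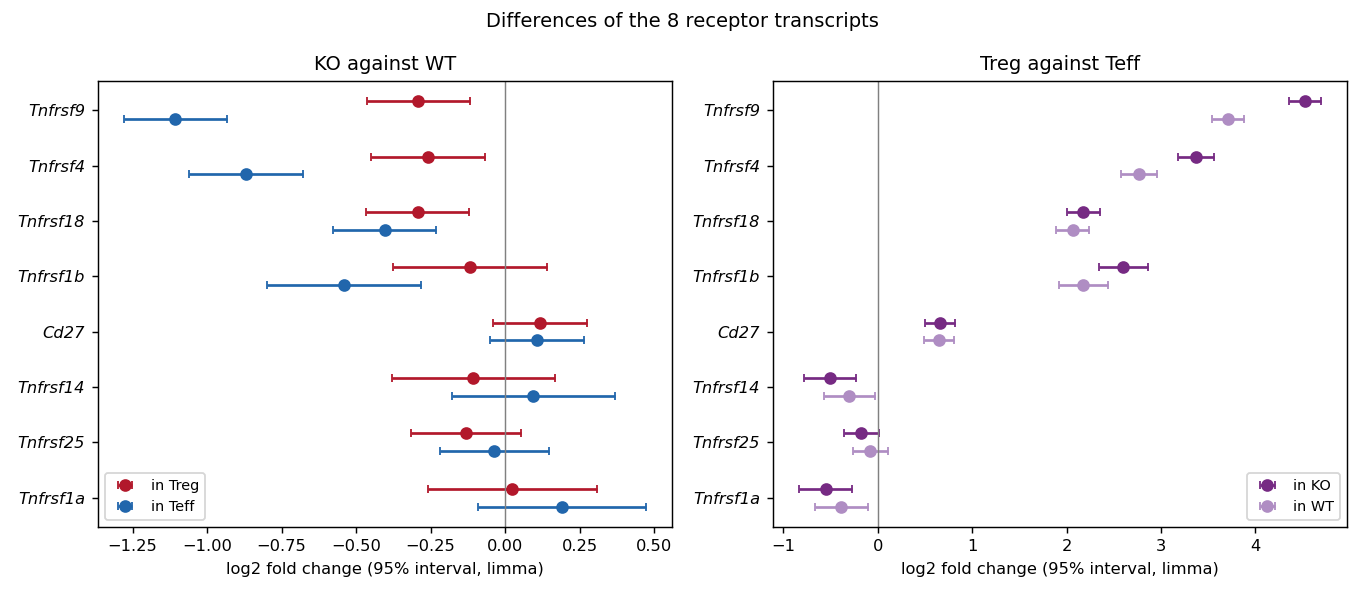
Log2 fold change (x axis, with 95% intervals from limma) of each receptor (y axis) for KO against WT in Treg and in Teff (left) and for Treg against Teff in KO and in WT (right). Tnfrsf9 and Tnfrsf4 lie at -1.11 and -0.87 in Teff and at -0.29 and -0.26 in Treg.

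The difference of the genotype effects between the cell types was then tested directly. For Tnfrsf9 the log2 fold change of KO against WT was less negative in Treg (-0.29) than in Teff (-1.11). The difference, Treg minus Teff, was 0.82 (SE 0.10, 95% interval 0.57 to 1.06, unadjusted p = 8.57e-05 by limma, adjusted p = 0.0719). For Tnfrsf4 (-0.26 in Treg and -0.87 in Teff) it was 0.61 (SE 0.12, 95% interval 0.34 to 0.88, adjusted p = 0.147 by limma). None of the 8 passed after adjustment, when 0.0225% of all tested genes did, and 3 had an unadjusted p below 0.05, as did 10.4% of all tested genes: Tnfrsf9, Tnfrsf4 and Tnfrsf1b (0.43, limma adjusted p = 0.405). Tnfrsf18 had a difference of 0.11 (95% interval -0.13 to 0.36) and Cd27 of 0.01 (-0.21 to 0.23). The same differences describe how far the Treg over Teff gap differs between genotypes: the ratio of Treg to Teff means was 23.1 in KO and 13.1 in WT for Tnfrsf9, and 10.3 in KO and 6.79 in WT for Tnfrsf4. For Tnfrsf1a the difference was -0.17 (95% interval -0.57 to 0.23, limma adjusted p = 0.809).

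Ligands and partners of these receptors were followed from a list of 12 genes, of which 9 were in the table and 8 were tested. In KO Teff 2 of 8 fell and 0 rose, against 5.08% of all tested genes called lower and 1.84% higher: Tnf, the ligand of both TNF receptors, and Cd160, a partner of HVEM. Tnf had 503 and 476 in KO Teff and 810.0 and 784 in WT Teff, with no overlap (log2 fold change -0.70, SE 0.09, limma adjusted p = 0.00647, at most 0.0469 over 18 alternatives). Cd160 had 227 and 203 in KO Teff and 326 and 463 in WT Teff (log2 fold change -0.85, SE 0.18, limma adjusted p = 0.0374), a call lost when any 1 library other than WT Teff replicate 1 was left out (adjusted p between 0.0646 and 0.160). Lta, which encodes lymphotoxin alpha, another ligand of both TNF receptors, had 345 and 377 in KO Teff and 482 and 439 in WT Teff and did not pass (log2 fold change -0.35, limma adjusted p = 0.0888). Median log2 fold changes over the list were -0.20 in Teff and -0.37 in Treg, against -0.02 and -0.01 over all tested genes.

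In Treg 0 of the 8 ligand genes were called between genotypes, and 0 for the difference of effects, where the smallest limma adjusted p was 0.331, for Ltb (difference -0.34). Ltb, the partner of lymphotoxin alpha in the membrane-bound ligand of the lymphotoxin beta receptor, came closest, with 7312 and 7795 in KO Treg and 10049.5 and 9716 in WT Treg (log2 fold change -0.39, SE 0.08, limma adjusted p = 0.0630). Ligand genes of the costimulatory receptors had low values, and Tnfsf9, Tnfsf14 and Tnfsf15 were not analysed here. Tnfsf4, the ligand of OX40, had 20.7 and 21.6 in KO Treg and 36.3 and 33.3 in WT Treg, and 9.28 and 4.12 in KO Teff and 10.04 and 15.1 in WT Teff. Tnfsf18, the ligand of GITR, stayed at 6.19 or below in every library and was not tested. Cd70, the ligand of CD27, had 24.6 and 5.90 in KO Treg and 22.6 and 20.6 in WT Treg, against values of 4.12 or below in all Teff libraries.

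Between cell types the ligands split. In WT, Lta (log2 fold change 0.90), Ltb (0.47) and Cd70 (3.49, a fitted value that depends on the pseudocount at such low levels and lay between 2.07 and 4.50 over the alternatives) were called higher in Treg and Tnf (-0.76), Btla (-0.47), Cd160 (-0.73) and Fasl (-1.95) lower, with limma adjusted p between 0.000707 and 0.0325. In KO, Lta (1.10) and Tnfsf4 (1.61) were called higher in Treg and Tnf (-0.40), Btla (-0.36) and Fasl (-2.25) lower, with limma adjusted p between 0.000213 and 0.0332. Fasl, the ligand of Fas, had 89.2 and 59.8 in KO Treg and 89.8 and 98.2 in WT Treg, against 323 and 380.3 in KO Teff and 389.9 and 341 in WT Teff. Btla, which encodes an inhibitory receptor that binds HVEM, had 2547 and 2328 in KO Treg and 2171 and 1982 in WT Treg, against 3046 and 3202 in KO Teff and 2885 and 2866 in WT Teff. Leaving out 1 library ended the calls of Cd160 and Cd70 in WT (WT Treg replicate 1 or 2 or WT Teff replicate 2, limma adjusted p between 0.101 and 0.146). In KO it ended those of Btla (KO Treg or KO Teff replicate 2, 0.0671 and 0.0549), of Tnf (KO Treg replicate 1 or 2 or KO Teff replicate 1, 0.0649 to 0.0695) and of Tnfsf4 (any Treg library or KO Teff replicate 2, 0.0599 to 0.131).

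Of 19 further receptors of the superfamily 15 were in the table and 12 were tested. In KO Teff 1 of 12 fell and 0 rose, a share near the 6.92% of all tested genes called, so the count says nothing particular about the list. It was Tnfrsf8, which encodes CD30, a receptor of activated lymphocytes, with 31.9 and 27.7 in KO Teff and 68.1 and 51.3 in WT Teff (log2 fold change -0.97, SE 0.18, limma adjusted p = 0.0241). That call was lost without any 1 Treg library, KO Teff replicate 2 or WT Teff replicate 1 (adjusted p between 0.0502 and 0.101). Tnfrsf8 was also the family member outside the 8 with the widest gap between cell types among called genes, with 545 and 607 in KO Treg and 757 and 750.1 in WT Treg (log2 fold change of Treg over Teff 4.23 in KO and 3.65 in WT, limma adjusted p = 1.11e-05 and 2.42e-05). Tnfrsf26 and Relt, an orphan receptor, were lower in Treg in both genotypes (log2 fold change -0.94 and -0.78 in KO and -1.15 and -0.63 in WT). Tnfrsf13b, better known from B cells, was called higher in Treg in KO (0.80) but not in WT (0.50, limma adjusted p = 0.0642). Tnfrsf10b, the mouse TRAIL receptor, was called higher in WT (0.67) but not in KO (0.43, limma adjusted p = 0.0501). Their differences of effects were not called (limma adjusted p = 0.728 and 0.74). Tnfrsf19 was lower in KO Treg without a call (-1.92, limma adjusted p = 0.0643). It was called lower in WT Treg, with 0 and 0.896 in WT Treg and 20.7 and 11.7 in WT Teff. In WT its fitted log2 fold change depends on the pseudocount and lay between -4.27 and -1.93 over the alternatives. Leaving out 1 library ended the calls of Tnfrsf13b (KO Treg replicate 2, limma adjusted p = 0.0663), Tnfrsf10b (WT Treg or WT Teff replicate 2, 0.0577 and 0.0513) and Relt in WT (WT Treg replicate 2 or either WT Teff library, 0.0583 to 0.0665). None of the 12 was called between genotypes in Treg, where Tnfrsf26 (log2 fold change 0.42, limma adjusted p = 0.139) and Tnfrsf22 (0.28, adjusted p = 0.167) had the smallest p. For the difference of effects these were Tnfrsf8 (0.58, limma adjusted p = 0.499) and Tnfrsf19 (adjusted p = 0.603), neither called.

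Of 30 genes of adaptors and downstream signalling 28 were tested. In KO Teff 4 fell and 0 rose, against 5.08% of all tested genes called lower and 1.84% higher. They were Nfkbia, which encodes the inhibitor IkB-alpha, the NF-kB subunit genes Rel and Relb, and Tnip1, which encodes a partner of A20. Nfkbia, itself a transcriptional target of NF-kB, had 7478 and 6073 in KO Teff and 10926.5 and 10770.5 in WT Teff (log2 fold change -0.69, SE 0.09, limma adjusted p = 0.00717). Rel had 1879 and 1604 in KO Teff and 2502 and 2419 in WT Teff (log2 fold change -0.50, limma adjusted p = 0.0136), and Relb had 1081 and 1026 in KO Teff and 1468 and 1415 in WT Teff (-0.45, adjusted p = 0.0130). Tnip1 changed by -0.31 (limma adjusted p = 0.0377). KO and WT Teff libraries did not overlap for these 4 genes, nor for some uncalled genes of the list, such as Nfkb1, Rela and Ikbkb. Other NF-kB genes of the list were not called and lay on both sides of 0 in KO Teff. Rela (log2 fold change 0.15), Ikbkb (0.27) and Ikbkg (0.24) lay above. Nfkb1 (-0.25, limma adjusted p = 0.0532), Tank (-0.45, adjusted p = 0.0505) and Tnfaip3 (-0.34, adjusted p = 0.171) lay below. These examples were picked after their values were seen. Of all 28 genes 12 lay above 0 and 16 below. In KO Treg 1 of 28 was called lower and 0 higher, against 0.779% and 0.674% of all tested genes. It was Relb, with 1803 and 1964 in KO Treg and 2496 and 2499 in WT Treg (log2 fold change -0.41, limma adjusted p = 0.0445). The TRAF adaptor genes Traf1, Traf2, Traf3, Traf4, Traf5 and Traf6 were not called between genotypes in either cell type. Over the 28 genes the median log2 fold change was -0.04 in Teff and -0.11 in Treg, against -0.02 and -0.01 over all tested genes.

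Leaving out 1 library ended several of these calls. The calls of Relb in Treg (limma adjusted p between 0.0554 and 0.235) and of Tnip1 in Teff (between 0.0518 and 0.158) were lost whichever 1 library was left out. That of Relb in Teff was lost without KO Teff replicate 2 or either WT Teff library (0.0514 to 0.0676), and that of Rel without either WT Teff library (0.0583 and 0.0614). With only the groups compared, the Teff calls of Nfkbia (limma adjusted p = 0.05115), Rel, Relb and Tnip1 were lost. Without trend and robust, those of Rel and Tnip1 were lost. Between cell types 12 of 28 were higher in Treg and 1 lower in KO, against 15.7% and 11.2% of all tested genes, and 14 were higher and 2 lower in WT, against 13.5% and 11.6%. Examples are Relb (log2 fold change 0.84 in KO and 0.79 in WT), Nfkbia (1.63 and 1.37), Tnip1 (0.89 and 0.94) and Traf1 (0.97 and 0.91), while Map3k14, which encodes the NF-kB-inducing kinase, was called lower in Treg in KO (-0.87) and in WT, where Ikbkb was the other gene called lower. For the difference of effects 0 of 28 were called, with the smallest p for Rela (-0.26, limma adjusted p = 0.370) and Map3k5 (-0.39, adjusted p = 0.403).

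**Figure D4:**
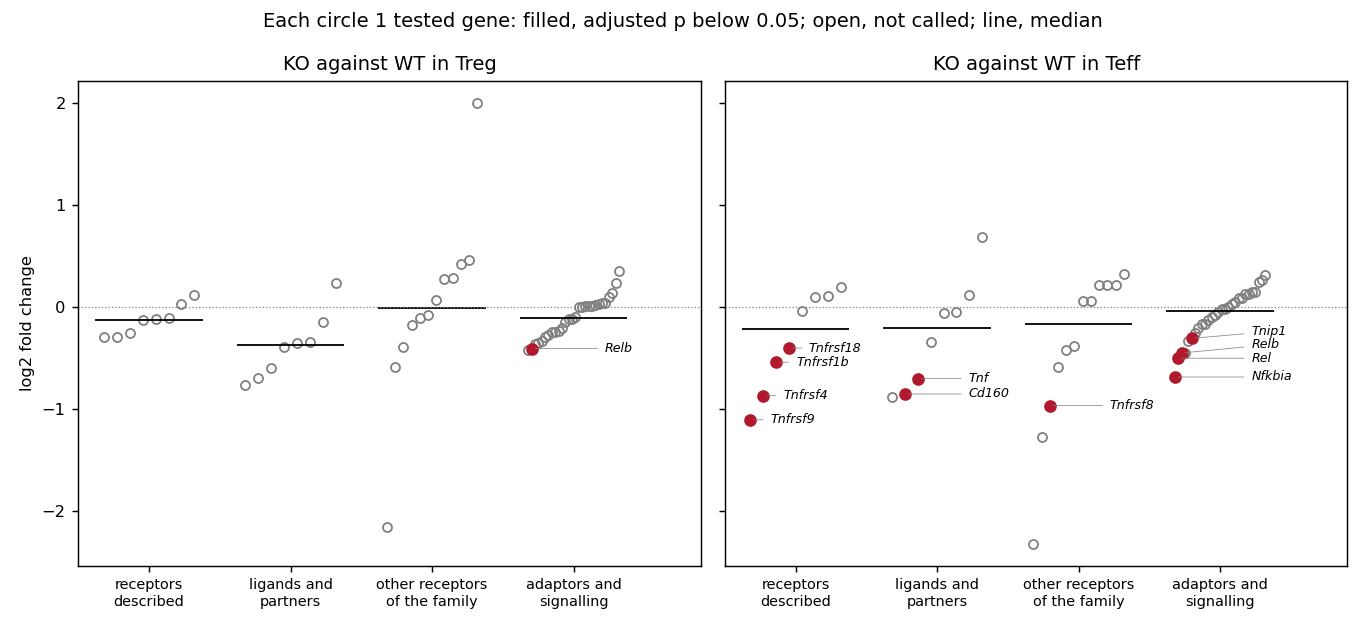
Log2 fold change of KO against WT (y axis) of every tested gene of the receptors described and of the 3 pathway lists (x axis), in Treg (left) and Teff (right). Filled circles passed limma's test at an adjusted p below 0.05, open circles did not, and lines are medians. All filled circles lie below 0.

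Genes with the most similar profile were named for each receptor by Pearson's r of log2 values over the 8 libraries, which share the strong split between cell types. For Tnfrsf4 these were Izumo1r (r = 0.9995), a folate receptor family gene known from Treg, and Pear1 (0.9987). For Tnfrsf9 they were Myo1e (0.9996) and Izumo1r (0.9989), for Tnfrsf18 Arhgef5 (0.9995) and Itm2c (0.9989), and for Tnfrsf1b the adenosine receptor gene Adora2a (0.9993) and the phosphatase gene Dusp4 (0.9991). The receptors with a weak split had less similar genes. The highest r was 0.9975 for Cd27 (Snx11), 0.9897 for Tnfrsf14 (Pcbd2), 0.9872 for Tnfrsf1a (Dpm3) and 0.9596 for Tnfrsf25 (Dnah2).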

How the data were processed

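Polyadenylated RNA of 8 libraries was read in single-end reads of 50 bases, per the labels' protocols. The submitters' processing notes name Trim Galore (0.4.4), Salmon (0.14.1), R (4.0.3), DESeq2 (1.28.1) and the build mm10. No label states how the authors went from transcripts to genes or scaled the libraries. The deposited table holds a signal value per gene and library, a normalized read number, beside log2 fold changes (KO relative to WT) and adjusted p-values that the authors computed. Whole multiples of each library's commonest step (tolerance 0.02) made up 26.6% to 29.1% of its values above 0, so whole reads were not recovered and no count test was run.

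All 8 libraries entered a single limma fit (version 3.58.1, R 4.3.3, trend and robust) of log2(value + 1) on 4 group means, with 4 residual degrees of freedom, for genes with at least 10 in at least 2 libraries. The scale understates changes of weakly expressed genes. P-values were adjusted by Benjamini-Hochberg over the 13358 genes within each of 5 contrasts and called at 0.05. The fit was tried on simulated whole counts, which differ from the deposited values, and that does not bear on the calls reported. The receptors, lists and tests were chosen with earlier results of these data known. Named genes were all receptors, all listed ligands, and of the other lists up to 6 called genes with the smallest p per contrast (the 2 with the smallest p where none passed), plus the 2 genes of highest r per receptor. Marker lists were counted and summed, and for resting T cells, where part of the list is not reported here, the named genes are given without a count or sum. Exon lengths were merged over transcripts of GENCODE M21, in which 97.2% of gene identifiers had the same version. The alternatives tried were other pseudocounts, filters and scalings, limma without trend and robust, only the groups compared, a replicate block, and leaving out each library. Python 3.11.15 was used for tables and plots, with pandas 2.3.3, numpy 2.4.6 and matplotlib 3.10.9.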

Additional observations from a re-analysis of the deposited data

How the results depend on the processing

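Of 712 receptor values recomputed under 18 alternative settings, 677 kept their direction and their side of the threshold, 24 lost a call, 4 gained one and 7 changed sign, all 7 of them values not called. Called lower in KO Teff were 4 receptors in the main setting, 2 without trend and robust shrinkage and 2 when only the groups compared were fitted, the calls of Tnfrsf9 and Tnfrsf4 being those kept; leaving out 1 library gave 2 to 3. The count stayed at 0 in Treg and for the difference of effects under every alternative, at 5 to 7 for Treg against Teff in KO and at 5 to 6 in WT. The replicate block gave 3 in Teff, ending the call of Tnfrsf1b, and 0 in Treg; same-numbered libraries did not deviate together (r between -0.038 and 0.059), so the numbers were not treated as pairs. Sign changes were those of Tnfrsf1a in Treg (-0.0796 to 0.129 leaving out 1 library), Tnfrsf14 in Teff (-0.05 to 0.24), Tnfrsf25 in Teff (-0.0884 to 0.0168) and the difference of effects of Cd27 (-0.0704 to 0.0926, and -0.0053 with quantile normalization). The cause was not tested. Over all genes, calls in Treg numbered 194 and ranged from 44 to 241, calls in Teff numbered 924 and ranged from 210 to 938, and calls for the difference of effects numbered 3 and ranged from 0 to 11; the lowest were 44 in Treg without WT Treg replicate 1 and 210 in Teff with only the groups compared. With the replicate block they numbered 114 in Treg and 688 in Teff. Sums of the normalized values were nearly even, which does not measure sequencing depth, and precision rests on 2 libraries per group.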
